A study of Mus musculus with 9 samples.

Results

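Mitochondrial ribosomal protein genes encode the protein part of the ribosome inside mitochondria. They were taken here as the genes with an array probe whose only platform symbol begins with Mrpl or Mrps followed by a digit. The rule gave 46 genes with 51 probes, out of 7118 genes with 9604 probes on the array. Of the members, 33 carry an Mrpl symbol (large subunit, 36 probes) and 13 an Mrps symbol (small subunit, 15 probes). All 46 lie on autosomes, spread over 15 chromosomes with at most 8 on any of them, and 0 lie on the X chromosome.

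The mitochondrial ribosome translates the few messenger RNAs of mitochondrial DNA, which encode core subunits of the respiratory chain and of ATP synthase. Its own proteins are encoded in the nucleus, made in the cytosol and imported, then assembled on mitochondrial rRNA by GTPases, helicases and RNA-modifying enzymes. Some members have bacterial counterparts and others were gained in mitochondria, and in testis the mitochondria of germ cells change their form as spermatogonia give way to spermatocytes.

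The values come from 9 two-colour cDNA arrays, on each of which total RNA of whole testis from Spo11-/- mice was hybridised against that of wild-type mice. SPO11 makes the DNA breaks that start meiotic recombination. At 15 days there were 4 arrays, all with knockout RNA in Cy3 and wild-type RNA in Cy5. At 12 days there were 5 arrays, with knockout RNA in Cy5 on replicates 1, 4 and 5 and in Cy3 on replicates 2 and 3. Replicates were numbered in order of deposit. The series design text gives quadruplicate arrays with different mouse pairs of a litter. The labels name no strain and do not say whether any of the 5 arrays at 12 days came from the same RNA, so p-values may measure partly technical spread. The array annotation lists 0 probes for Spo11, and ratios carry no level, so neither the knockout nor the tissue label could be checked against its own gene or markers.

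Each value is a log2 ratio with the sign of the deposited file. By the dye labels a Cy5 over Cy3 ratio would be wild type over knockout at 15 days, so that a value below 0 would mean a higher level in knockout. That direction is not settled. The 15-day arrays correlated with each other at r of 0.38 to 0.60 over all probes, but at -0.25 to -0.11 with replicate 2 and at -0.38 to -0.33 with replicate 3 of 12 days, which have the same dye orientation. With 12-day replicates 1, 4 and 5, which have the opposite orientation, r was -0.23 to 0.03. Values at 15 days are therefore called above or below 0, with no group named as higher. Values at 12 days are given as knockout over wild type, taking the ratios as Cy5 over Cy3. They would all turn their sign if every ratio ran the other way. If the deposited ratios of both dye orientations already ran in 1 direction, the 12-day arrays should not be turned. Which of these readings holds is not settled. As deposited, pairs of 12-day arrays correlated at -0.13 to 0.45 in the same dye orientation and at 0.004 to 0.29 in opposite orientations. Across arrays, 72.1% to 91.3% of the 16128 probes had a value.

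The regions just upstream of 4 of the 5 members that passed the test at 15 days are shown first, so that their letters can be set beside the values of these genes. RefSeq's promoter table for GRCm38.p6 matched 40 of the 46 members. The windows hold the 250 bases before the first listed gene start, written 5′ to 3′ on the gene's strand. They lie at chr3:87919294-87919543 on the + strand for Mrpl24, chr6:125191950-125192199 on the + strand for Mrpl51, chr9:105053018-105053267 on the + strand for Mrpl3 and chr6:92184024-92184273 on the - strand for Mrps25. Capitals mark the letters CCGGAAG, the core that ETS-family factors bind.
Mrpl24: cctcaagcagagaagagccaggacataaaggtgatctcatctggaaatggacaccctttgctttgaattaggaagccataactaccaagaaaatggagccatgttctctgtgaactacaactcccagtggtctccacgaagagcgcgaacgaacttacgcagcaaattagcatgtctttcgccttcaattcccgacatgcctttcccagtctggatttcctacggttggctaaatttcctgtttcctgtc
Mrpl51: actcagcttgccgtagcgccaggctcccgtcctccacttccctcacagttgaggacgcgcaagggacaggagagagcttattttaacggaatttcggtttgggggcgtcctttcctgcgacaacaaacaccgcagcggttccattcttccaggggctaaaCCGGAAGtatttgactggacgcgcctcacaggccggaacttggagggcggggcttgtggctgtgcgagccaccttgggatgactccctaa
Mrpl3: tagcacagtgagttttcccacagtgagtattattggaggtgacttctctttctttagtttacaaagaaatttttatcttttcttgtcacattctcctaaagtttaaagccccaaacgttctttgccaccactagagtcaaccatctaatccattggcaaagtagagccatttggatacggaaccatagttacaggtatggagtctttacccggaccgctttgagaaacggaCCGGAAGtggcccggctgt
Mrps25: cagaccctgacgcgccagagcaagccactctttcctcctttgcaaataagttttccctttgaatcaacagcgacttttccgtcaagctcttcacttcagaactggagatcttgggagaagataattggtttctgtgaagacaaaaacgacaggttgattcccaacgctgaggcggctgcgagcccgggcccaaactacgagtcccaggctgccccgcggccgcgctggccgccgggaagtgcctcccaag

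The cores of 3 motifs were searched on both strands of these windows. The NRF1 core GCATGCGC was found in 5 of 40 members (12.5%), against 2.99% of the windows of 17492 protein-coding genes. By subunit these were 4 of 28 large-subunit windows (14.3%) and 1 of 12 small-subunit windows (8.33%). The ETS core CCGGAAG was found in 8 of 40 members (20%), against 9.13%, with 7 of 28 in the large subunit (25%) and 1 of 12 in the small subunit (8.33%), so that the small subunit was not above the share of all genes. The YY1 core AGATGGCG was found in 2 of 40 members (5%), 1 in each subunit, against 1.15%. At least 1 of the 3 was found in 14 of 40 members (35%), against 12.6%, and Mrpl17 held both an NRF1 and an ETS core. Among the 4 windows printed, those of Mrpl51 and Mrpl3 each held 1 ETS core, and those of Mrpl24 and Mrps25 held 0 of the 3 motifs. A match is a description of these letters, and the difference in shares was not tested.

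At 15 days, 27 of the 33 large-subunit genes had an estimate below 0 and 6 had one above 0. The median over the 33 genes was -0.195, and it was below 0 on each array, at -0.27, -0.24, -0.20 and -0.14 on replicates 1 to 4 (mean -0.21 ± 0.055 SD, n = 4). Over all 6958 genes tested, 53.55% were below 0 and the median was -0.02. Of the large-subunit genes, 4 passed limma's test (Benjamini-Hochberg adjusted p under 0.05 over all 12198 features), all below 0, and 0 passed above 0. That is 12.1% of the 33, against 7.20% of all genes called below 0 and 4.04% called above 0. The count was 8 after subtracting the local median of probes near each other in the deposited order, and 0 at the design text's stricter threshold. With knockout in Cy3 on all 4 arrays, genotype and dye cannot be told apart at 15 days. In whole testis, a ratio of this kind cannot tell fewer cells of a type apart from less RNA per cell.

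The 4 genes called below 0 differed in how evenly the arrays showed them. Mrpl24, the counterpart of a bacterial protein that binds early in assembly of the large subunit, had -0.61, -0.69, -1.10 and -0.27 on replicates 1 to 4. All 4 arrays lay below 0, and replicate 3 was the farthest from it. Its estimate was -0.67 (SE 0.135, 95% interval -0.97 to -0.36, 1.59-fold, limma adjusted p = 0.018). Without replicate 3 it was -0.52 with an adjusted p of 0.060.

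Mrpl51, which has no bacterial counterpart, had -0.69 and -0.79 on replicates 1 and 2 but -0.24 and -0.26 on replicates 3 and 4. Every value was below 0, and replicates 1 and 2 lay farther from it. The estimate was -0.495 (SE 0.125, 1.41-fold, limma adjusted p = 0.034). It missed the threshold without replicate 1 (-0.43, adjusted p = 0.108), replicate 2 (-0.40, 0.117) or replicate 3 (-0.58, 0.057).

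Mrpl15 and Mrpl3 were smaller and more even. Mrpl15, also with a bacterial counterpart, had -0.31, -0.27, -0.36 and -0.60 (estimate -0.385, SE 0.105, 1.31-fold, limma adjusted p = 0.043). Mrpl3, whose bacterial counterpart reaches towards the peptidyl transferase centre, had -0.22, -0.38, -0.45 and -0.37 (estimate -0.355, SE 0.10, 1.28-fold, limma adjusted p = 0.047). Neither gene had an array above 0, yet both missed the threshold when any replicate was left out, with limma adjusted p from 0.086 to 0.127 for Mrpl15 and from 0.085 to 0.133 for Mrpl3.

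The other large-subunit genes did not pass the test, and those nearest to it were close in size to the genes that did. The next lowest estimates were those of Mrpl30 (-0.355, limma adjusted p = 0.077) and Mrpl1 (-0.35, adjusted p = 0.057). MRPL1 belongs to the flexible stalk at the exit side of the large subunit. Mrpl10 (-0.195) and Mrpl12 (-0.17), whose products form the opposite stalk that receives translation factors, had limma adjusted p of 0.257 and 0.273. Unadjusted, 12 of the 33 genes had p under 0.05, all of them below 0, where 17.2% of all genes had such a p below 0.

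Above 0, the highest large-subunit estimate was that of Mrpl36, the counterpart of a small zinc-binding bacterial protein, with 0.02, 0.03, 0.44 and 0.64 on replicates 1 to 4. It was above 0 on all 4 arrays, but close to 0 on replicates 1 and 2 (estimate 0.28, SE 0.13, limma adjusted p = 0.169). Mrpl52 had 0.94, 0.06 and -0.23 on replicates 1 to 3 and no value on replicate 4 (0.26, adjusted p = 0.432), so its arrays lay on both sides of 0. Mrpl44, related to double-strand RNA nucleases, spread from -0.40 on replicate 1 to 0.70 on replicate 2 (0.08, adjusted p = 0.782). Mrpl23 (0.07), Mrpl58 (0.04) and Mrpl27 (0.01) completed the 6 genes with estimates above 0.

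**Figure D1:**
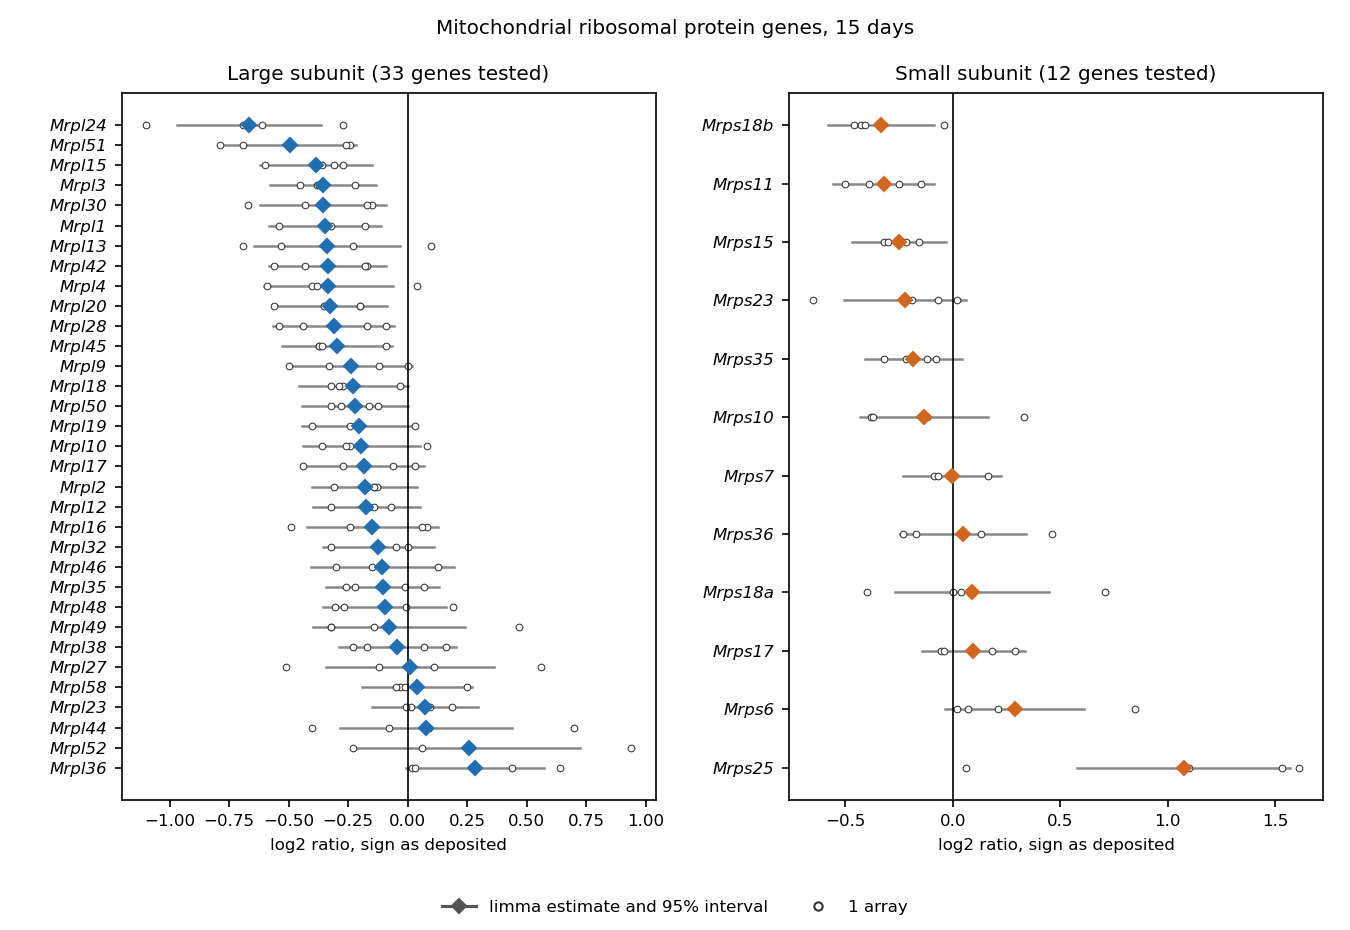
Log2 ratio at 15 days, sign as deposited (x axis), for the 33 large-subunit genes (left) and the 12 small-subunit genes tested (right), each sorted by estimate. Diamonds with lines are limma estimates with 95% intervals and open circles are the 4 arrays. The large-subunit estimates run from -0.67 (Mrpl24) to 0.28 (Mrpl36), and Mrps25 at 1.075 stands apart from the other small-subunit genes.

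Among the 31 large-subunit genes with a value on all 4 arrays at 15 days, 14 were below 0 on every array and 1 (Mrpl36) was above 0 on every array. Of the 12 such small-subunit genes, 4 were below 0 on every array (Mrps11, Mrps15, Mrps18b and Mrps35) and 2 were above 0 on every array (Mrps6 and Mrps25). Over all 6697 genes with 4 values, 23.1% were below 0 on every array and 14.4% were above it.

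By origin, the 22 large-subunit genes with a bacterial counterpart had a median of -0.215 with 3 called below 0 (13.6%). The 11 genes without had a median of -0.096 with 1 called below 0 (9.09%), against 7.20% of all genes. The difference between these classes was not tested, and the classes were assigned after the values were seen.

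In the small subunit, 7 of the 12 genes tested were below 0 at 15 days (53.55% of all genes), with a median of -0.07. Its array medians were -0.17, -0.075, -0.01 and -0.02 on replicates 1 to 4 (mean -0.07 ± 0.07 SD, n = 4), so replicates 3 and 4 lay almost at 0. The median over genes was -0.0275 without replicate 1 or replicate 4 and -0.105 without replicate 3. It was -0.03 with the local median of spots subtracted or with probes taken singly. Of the 12 genes, 0 passed limma's test below 0 (7.20% of all genes) and 1, Mrps25, passed above 0 (4.04% of all genes). The other small-subunit genes lay between -0.335 and 0.29.

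The lowest small-subunit genes were Mrps18b, at -0.43, -0.41, -0.46 and -0.04 on replicates 1 to 4, and Mrps11, at -0.25, -0.15, -0.50 and -0.39. All of these values were below 0, with replicate 4 of Mrps18b nearest to it. Their estimates were -0.335 (SE 0.11, limma adjusted p = 0.076) and -0.32 (SE 0.105, adjusted p = 0.074). Mrps15 (-0.25, adjusted p = 0.118), Mrps23 (-0.22), Mrps35 (-0.185) and Mrps10 (-0.135) followed. MRPS11, MRPS15 and MRPS10 have counterparts in the bacterial small subunit, whereas MRPS23 and MRPS35 have none.

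At the upper end, Mrps6 had 0.07, 0.02, 0.85 and 0.21 (0.29, SE 0.14, limma adjusted p = 0.204), so that replicate 3 carried most of its mean. Mrps17 (0.09), Mrps18a (0.09) and Mrps36 (0.05) had arrays on both sides of 0, as had Mrps7 (-0.004). Mrps9 had values on 2 of the 4 arrays only, -0.16 on replicate 1 and 0.92 on replicate 4, and was not tested.

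The names do not map onto the subunits without exception. The product of Mrps18a sits in the large subunit, while that of its paralog Mrps18b sits in the small subunit, and the product of Mrps36 belongs to the alpha-ketoglutarate dehydrogenase complex. At 15 days Mrps18a had -0.40, 0.04, 0.71 and 0.00 on replicates 1 to 4, on both sides of 0. With Mrps18a moved over, the large subunit had a median of -0.19 over 34 genes. Without Mrps18a and Mrps36 the small subunit had 7 of 10 genes below 0 and a median of -0.16, a regrouping made after the values were seen.

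Mrps25, a small-subunit gene with no bacterial counterpart, had the highest estimate of the members. Its probe read 1.53, 1.10 and 1.61 on replicates 1 to 3 but 0.06 on replicate 4. Replicates 1 to 3 lay far above 0 and replicate 4 at it. The estimate was 1.075 (SE 0.22, 95% interval 0.58 to 1.57, 2.11-fold, limma adjusted p = 0.018). It missed the threshold without replicate 1 (0.92, adjusted p = 0.054) or replicate 3 (0.90, adjusted p = 0.080).

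This value rests on the probe annotated to Mrps25 alone. A further 3 probes are annotated to both Mrps25 and Nr2c2, a nuclear receptor gene, and the rule leaves them out. Their means at 15 days were -0.58, -0.175 and -0.05. The lowest of them had -0.32, -0.43, -0.88 and -0.69 on replicates 1 to 4 and passed limma's test over single probes below 0 (adjusted p = 0.015), opposite to the probe of Mrps25 alone (adjusted p = 0.011 in the same fit). With all 4 probes averaged, the estimate was 0.07 and the limma adjusted p was 0.70. Which transcript each probe detects was not tested.

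**Figure D2:**
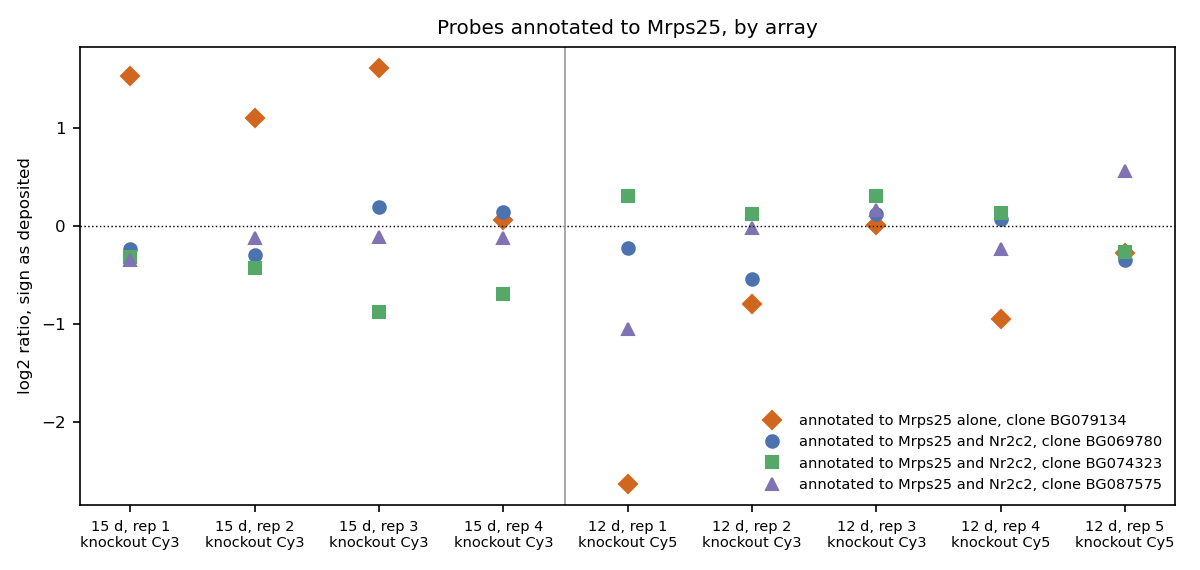
Log2 ratio, sign as deposited (y axis), of the 4 probes annotated to Mrps25 on each of the 9 arrays (x axis, with the age, the replicate and the dye of the knockout RNA). The probe annotated to Mrps25 alone (diamonds) lies at 1.10 to 1.61 on 3 arrays at 15 days and at -2.63 on replicate 1 at 12 days, while the 3 probes shared with Nr2c2 stay between -1.05 and 0.56 on all arrays.

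Beside Mrps25, 5 members had 2 probes each. The probe means at 15 days were of opposite sign for Mrpl48 (-0.22 and 0.03) and Mrps7 (-0.06 and 0.05), and none of these 4 probes passed the test. For Mrpl50 they were -0.18 and -0.26, for Mrpl23 0.135 and 0.01, and for Mrps17 0.005 and 0.18.

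Array by array at 15 days, 26 of 32 large-subunit genes with a value were below 0 on replicate 1, 26 of 33 on replicate 2, 23 of 33 on replicate 3 and 26 of 32 on replicate 4. In the small subunit the counts were 9 of 13, 9 of 12, 6 of 12 and 7 of 13. Over all genes with a value, 54.9%, 55.1%, 55.1% and 51.3% were below 0 on these arrays, so the small subunit was near that share on replicates 3 and 4.

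**Figure D3:**
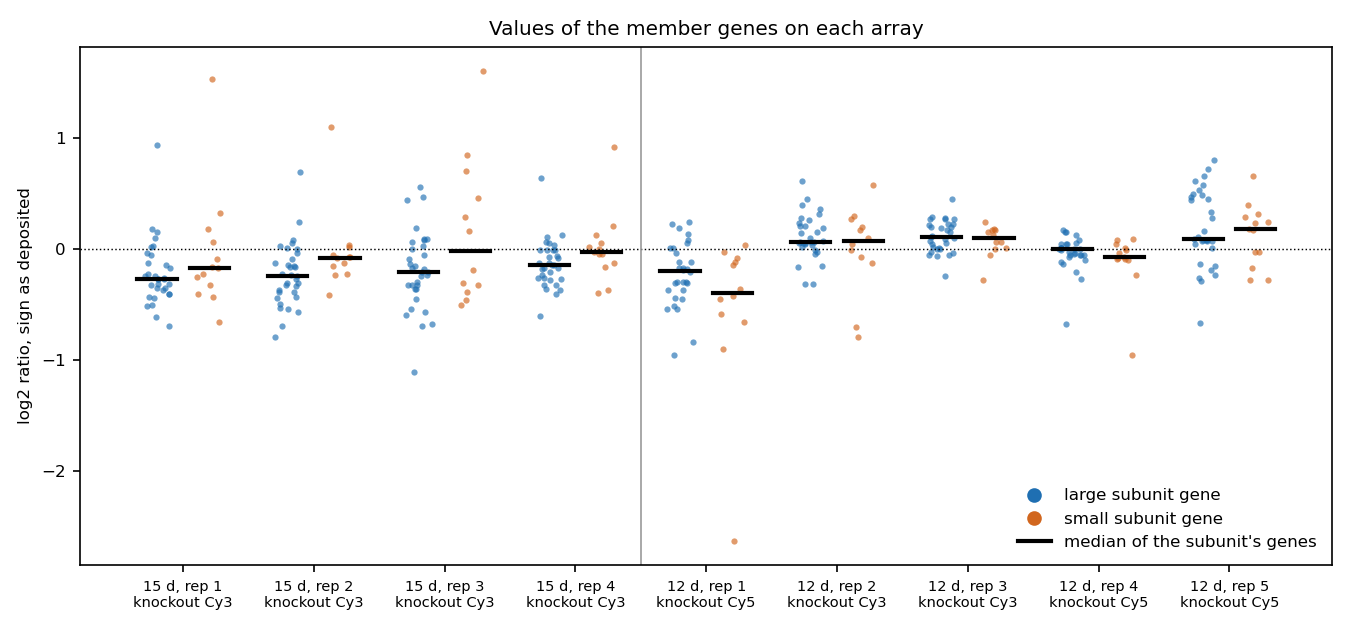
Log2 ratio, sign as deposited (y axis), of each member gene (points) on each of the 9 arrays (x axis), with the median of each subunit as a bar. The large-subunit medians are below 0 on all 4 arrays at 15 days (-0.27 to -0.14) and on replicate 1 at 12 days (-0.195), and at or above 0 on the other 12-day arrays.

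The partners of the mitochondrial ribosome were read from lists of known function. Dap3, a GTP-binding subunit of the small subunit without an Mrp name, had -0.29, -0.07, -0.95 and -0.12 at 15 days (-0.36, limma adjusted p = 0.136). Of 16 assembly and rRNA modification genes, 3 were called below 0 (18.75%) and 0 above 0, with a median of -0.16. Over all genes, 7.20% were called below 0 and 4.04% above 0. Fastkd2, an RNA-binding protein needed for the large-subunit rRNA, had -0.67, -1.02, -0.47 and -0.40 (-0.64, adjusted p = 0.015). Eral1, a GTPase that binds the small-subunit rRNA, had an estimate of -0.46 (adjusted p = 0.025), and Mtg1, a GTPase of large-subunit assembly, one of -0.49 (adjusted p = 0.040). Every array was below 0 for these 3 genes.

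Of 10 translation factors and RNA-binding partners, 0 passed limma's test, while 8 were below 0. An unadjusted p under 0.05 was reached by 4, all below 0, where 17.2% of all genes had such a p below 0. The median of the list was -0.20. The smallest p belonged to Slirp (-0.42, adjusted p = 0.056), C1qbp (-0.31, adjusted p = 0.078) and Gfm1, mitochondrial elongation factor G (-0.33, adjusted p = 0.091). Of 13 mitochondrial aminoacyl-tRNA synthetase and amidotransferase genes, Kars was called below 0 (-0.40, adjusted p = 0.042) and Sars2 above 0 (0.68, adjusted p = 0.041). Rars2 had -0.29 (adjusted p = 0.085), and the median of the list was -0.03. The share of this list called below 0 was 7.69%, against 7.20% of all genes, and 4.04% of all genes were called above 0.

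Of 15 genes of mitochondrial DNA upkeep and transcription, 0 passed limma's test, 2 had an unadjusted p under 0.05 (28.7% over all genes), and the median was 0.06. The smallest p there belonged to Nrf1 (0.31, limma adjusted p = 0.106), which encodes an activator of nuclear genes for mitochondrial proteins. Polg had -0.285 (adjusted p = 0.141) and Pprc1 -0.30 (adjusted p = 0.240). Whether these lists differ from the ribosomal members was not tested.

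Cytosolic ribosomal and respiratory chain genes also lay mostly below 0 at 15 days. The 73 cytosolic ribosomal protein genes had a median of -0.22 with 61 below 0 and 9 called below 0 (12.3%). The 61 respiratory chain genes tested had a median of -0.30 with 48 below 0 and 14 called below 0 (23.0%). Neither list had a gene called above 0. Over all genes, 53.55% were below 0, 7.20% were called below 0 and 4.04% were called above 0. The difference between these lists and the members was not tested, and the lists share all 4 arrays.

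**Figure D4:**
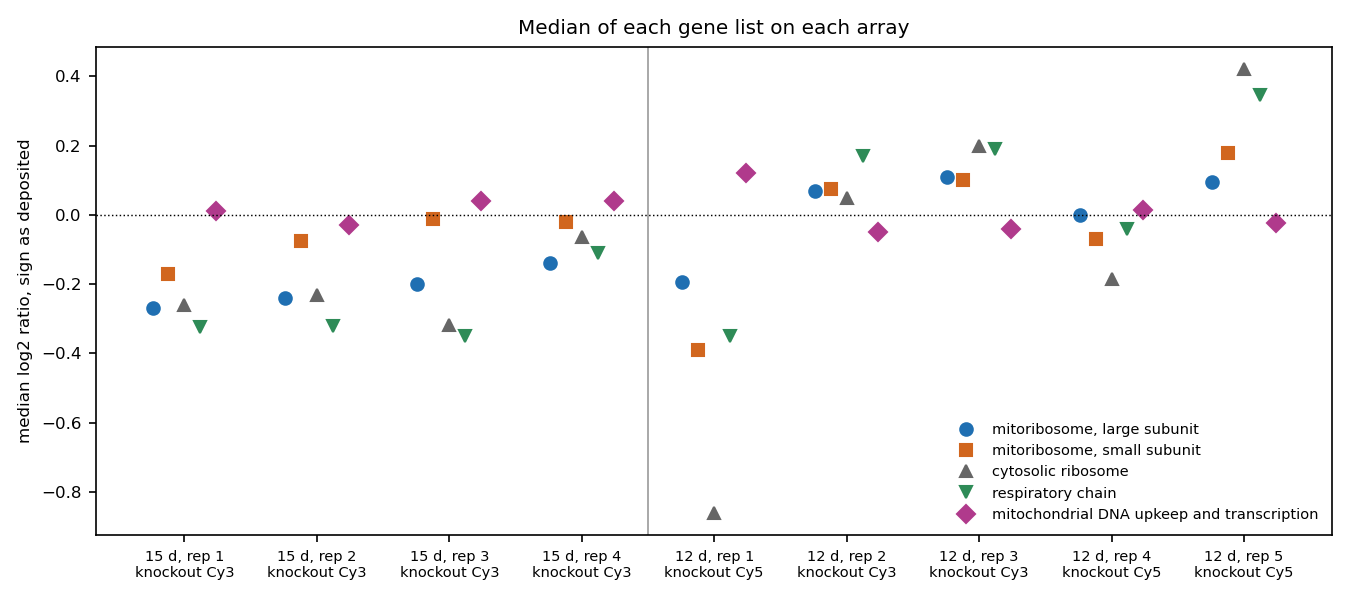
Median log2 ratio, sign as deposited (y axis), of 5 gene lists on each of the 9 arrays (x axis). At 15 days the cytosolic ribosome and respiratory chain medians are below 0 on every array, as are those of both mitochondrial ribosome subunits, whereas mitochondrial DNA upkeep and transcription stays between -0.03 and 0.04. On replicate 1 at 12 days the cytosolic ribosome lies at -0.86 and the small mitochondrial subunit at -0.39.

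Markers of testis cell types also moved at 15 days, where 7.20% of all genes were called below 0 and 4.04% above 0. Of the pachytene spermatocyte markers measured, 4 of 5 were called below 0 (Slc2a3, Rsph1, Lyar and Ccnb1ip1). The remaining marker, Sycp3, had -0.11, -0.24, 0.87 and 0.40 on replicates 1 to 4 (0.23, limma adjusted p = 0.392). The list's array medians ran from -1.97 to -0.99. Of the spermatogonia markers, 3 of 7 were called above 0 (Etv5, Ccnd1 and Uchl1), with array medians from 0.21 to 0.405. Sertoli cell markers had 0 of 7 called by limma and 0 with an unadjusted p under 0.05. Leydig cell markers had 1 of 5 called above 0, peritubular and fibroblast markers 1 of 7 above 0 and 1 below 0, endothelium and blood 1 of 4 above 0, and the macrophage marker Lyz2 was called below 0. The part of these shifts in the members' values was not tested.

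At 12 days no member passed the test, and neither did any other gene. Of the 42 members tested, limma called 0, as it did for 0% of the 6237 genes. At an unadjusted p under 0.05 there were 0 members, against 120 of the 6237 genes (1.92%). Counted over all features, 269 of 10075 had such a p. A SAM-type statistic called 2 features and 0 members. With ratios taken as Cy5 over Cy3, 25 of 30 large-subunit genes and 11 of 12 small-subunit genes had estimates below 0 in knockout over wild type, with medians of -0.05 and -0.08. Over all genes, 53.9% were below 0 with a median of -0.01. The cytosolic ribosomal protein genes had 70 of 72 below 0 (median -0.16) and the respiratory chain genes 49 of 60 (median -0.10).

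The 12-day arrays did not share a sign. Turned to knockout over wild type, the large-subunit medians were -0.195, -0.07, -0.11, 0 and 0.10 on replicates 1 to 5. The small-subunit medians were -0.39, -0.075, -0.10, -0.07 and 0.18. As deposited, without turning, the large-subunit medians were -0.195, 0.07, 0.11, 0 and 0.10. Those of the small subunit were then -0.39, 0.075, 0.10, -0.07 and 0.18. Replicate 5 lay above 0 in both subunits, and replicate 1 was the lowest in both. Ratios of probes adjacent in the deposited order correlated at r = 0.23 to 0.48 on the 15-day arrays. At 12 days r was 0.65 on replicate 5 and 0.11 to 0.20 on replicates 1 to 4. Replicates 1 and 2 had values for 72.1% and 72.9% of the probes, and replicates 3 to 5 for 86.8% to 90.1%. The part of these array differences in the subunit medians was not tested. Across arrays the turned medians averaged -0.06 ± 0.11 (large subunit) and -0.09 ± 0.20 (small subunit, SD, n = 5 each). The spread between arrays thus exceeded the mean.

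The lowest large-subunit estimates at 12 days were those of Mrpl44, Mrpl58 and Mrpl24. Mrpl44 had -0.29, -0.05, -0.45, -0.67 and 0.17 as knockout over wild type on replicates 1 to 5 (-0.26, 95% interval -0.59 to 0.08). Mrpl58, a peptidyl-tRNA hydrolase built into the large subunit, had -0.95, -0.26, -0.23, -0.05 and 0.34 (-0.23, 95% interval -0.675 to 0.21). Mrpl24 had -0.18, -0.32, -0.29, -0.10 and 0.10 (-0.18, 95% interval -0.385 to 0.02). Each of the 3 was below 0 on replicates 1 to 4 and above 0 on replicate 5. Mrpl9 (-0.14), Mrpl16 (-0.14) and Mrpl4 (-0.105) came next. At the upper end lay Mrpl49 (0.05), Mrpl3 (0.05), Mrpl18 (0.04), Mrpl17 (0.03), Mrpl32 (0.02) and Mrpl10 (-0.002).

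Of 28 large-subunit genes with 5 values, 0 were on the same side of 0 on all 5 turned arrays. Of 11 small-subunit genes, 2 were below 0 on all 5, Mrps18b and Mrps23. Mrps18b had -0.02, -0.20, -0.17, -0.01 and -0.025 (-0.10, SE 0.08), so 3 of its arrays were almost at 0. Mrps23 had -0.08, -0.58, -0.07, -0.09 and -0.17 (-0.22, SE 0.10), with replicate 2 apart from the rest.

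Mrps25 had the lowest small-subunit estimate at 12 days, -0.45, with the widest error of the members (SE 0.33). Its values as knockout over wild type were -2.63, 0.79, -0.01, -0.95 and -0.28 on replicates 1 to 5. The arrays lay on both sides of 0 and spanned a wide range. Mrps17 had the highest estimate (0.16), with 0.70 on replicate 2 and values from -0.17 to 0.29 on the others. Mrps35 (-0.145), Mrps36 (-0.13), Mrps10 (-0.09), Mrps18a (-0.07), Mrps15 (-0.07), Mrps11 (-0.06), Mrps6 (-0.05) and Mrps7 (-0.01) lay between.

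**Figure D5:**
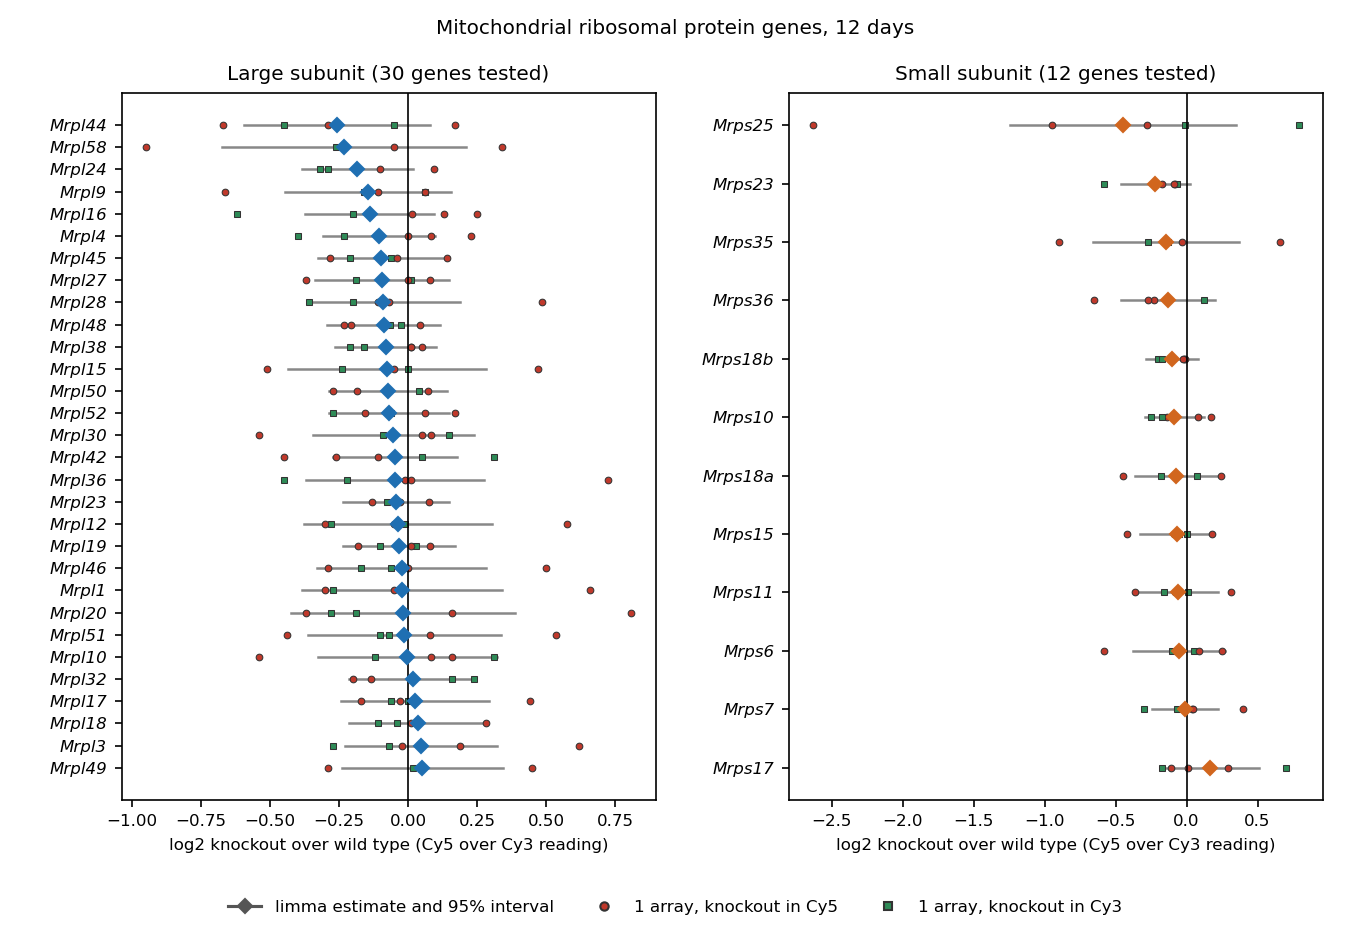
Log2 knockout over wild type at 12 days, with ratios taken as Cy5 over Cy3 (x axis), for the 30 large-subunit genes (left) and the 12 small-subunit genes tested (right). Diamonds with lines are limma estimates with 95% intervals, circles are arrays with knockout in Cy5 and squares arrays with knockout in Cy3. Every interval includes 0, and most estimates lie below it.

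The difference between the ages was tested in 1 fit of the 9 arrays, which share a dye term. Because knockout carried Cy3 on all 15-day arrays, the estimate sets their mean against 12-day replicates 2 and 3 only. The array titles run in separate number ranges at the ages, so title range and age cannot be told apart. With ratios taken as Cy5 over Cy3, 27 of 30 large-subunit genes and 7 of 12 small-subunit genes had a knockout effect that was higher at 15 than at 12 days, with medians of 0.24 and 0.23. With the 15-day sign turned, the counts were 9 of 30 and 7 of 12, with medians of -0.13 and 0.045. Over all 6144 genes, 3340 had a difference above 0, with a median of 0.04. With the sign turned, 2737 of the 6144 were above 0, with a median of -0.03. On the first reading 69 of 72 cytosolic ribosomal protein genes and 50 of 59 respiratory chain genes were above 0. With the sign turned, 22 of 72 and 22 of 59 were.

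Of the members, 1 passed the test of this difference, Mrpl24, at 0.97 (SE 0.21, 95% interval 0.50 to 1.44, limma adjusted p = 0.043). Over all genes 1.64% were called above 0 and 0.635% below 0. The deposited values of Mrpl24 were -0.61, -0.69, -1.10 and -0.27 on the 15-day arrays, against 0.32 and 0.29 on 12-day replicates 2 and 3, so these arrays did not overlap. The call was lost without 15-day replicate 1 (adjusted p = 0.087), 2 (0.096) or 3 (0.079), and without 12-day replicate 2 (0.241), 3 (0.20) or 4 (0.067).

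The order of the other members holds for this reading only. The next highest large-subunit differences, Mrpl4 (0.65), Mrpl28 (0.59), Mrpl51 (0.58), Mrpl20 (0.56) and Mrpl16 (0.56), had limma adjusted p of 0.096 to 0.266. With the 15-day sign turned they were -0.02 for Mrpl4, -0.03 for Mrpl28, -0.41 for Mrpl51, -0.09 for Mrpl20 and 0.26 for Mrpl16. On the first reading the lowest were Mrpl52 (-0.09), Mrpl32 (-0.08), Mrpl23 (-0.01), Mrpl49 (0.04), Mrpl36 (0.05) and Mrpl27 (0.08). In the small subunit Mrps23 (0.55), Mrps18b (0.52), Mrps11 (0.40), Mrps35 (0.385), Mrps10 (0.345) and Mrps15 (0.275) were highest. Turned, they were 0.10 for Mrps23, -0.15 for Mrps18b, -0.25 for Mrps11, 0.015 for Mrps35, 0.075 for Mrps10 and -0.225 for Mrps15. On the first reading Mrps25 (-1.465, limma adjusted p = 0.192), Mrps17 (-0.36), Mrps6 (-0.26), Mrps36 (-0.17), Mrps18a (-0.03) and Mrps7 (0.19) were lowest.

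With the 15-day sign turned, limma called 0 members and 0% of all genes, and 2 of 42 members had an unadjusted p under 0.05, against 6.07% of all genes. Mrpl24 then had -0.36 (adjusted p = 0.807). The extremes were then Mrpl42 (-0.515), Mrpl36 (0.62), Mrps11 (-0.25) and Mrps25 (0.685). The sign and the call of Mrpl24 in this comparison thus change with the reading of the 15-day sign.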

How the data were processed

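The deposited values were a table of log2 ratios, 1 column for each of 9 arrays, and every column had a median of 0. Per the series design text, the authors scanned with a GenePix 4000A, extracted and flagged spots with GenePix 3.0 and centred each array on its median. Neither the log base (read as 2) nor the direction of the ratio nor any background correction is stated in the labels or the design text. Intensities were not used here, so the number of arrays limits the precision.

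Probes were named by the platform annotation (9604 with 1 gene, 213 with several, 6311 with none), with symbols updated by Entrez ID through RefSeq's table of GRCm38.p6, which matched 7029 of 7118 genes. Probes of a gene were averaged. Ratios were fitted with limma 3.58.1 in R 4.3.3 (lmFit, eBayes, two-sided, Benjamini-Hochberg over all features, adjusted p under 0.05). For 15 days, features with 3 or more values were tested by the mean of the 4 arrays against 0. The 12-day model had a knockout coefficient and a dye intercept and required 4 or more values in all, with at least 1 in each dye orientation. The age difference used all 9 arrays. The members' standard errors ran from 0.098 to 0.22 (15 days) and from 0.076 to 0.33 (12 days). On simulated arrays the 15-day test recovered 79 of 100 features changed by 1 log2 unit and 20 of 100 changed by 0.5, over 12198 features. The simulated noise was normal and independent between features, with no dye effect. These counts need not hold for the real arrays.

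The members, lists and tests were chosen with earlier results of these data known. Named are members past the threshold in any comparison, up to 6 highest and 6 lowest per subunit and comparison, the Mrps18 paralogs, members whose probes differ in sign at 15 days, and from each list the genes past the threshold and up to 3 of smallest p. Alternatives covered missing values, centring, scaling, quantile normalization, spot position, single probes, robust empirical Bayes, the design text's stricter threshold, a SAM-type statistic, dye terms, title number range, the 15-day sign and leaving out each array. A joint fit with the 15-day sign turned and the shared Mrps25 probes were added after seeing the data.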

Additional observations from a re-analysis of the deposited data

Results flagged for a closer look

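In 6 of 85 groups of member values, 1 array stood apart from the others by Dixon's criterion at the 95% level, and chance gives about 1 in 20. At 15 days these were Mrpl2 on replicate 1 (-0.31, the others from -0.14 to -0.13), Mrpl45 on replicate 3 (-0.09, the others from -0.37 to -0.36), Mrpl58 on replicate 2 (0.25, the others from -0.05 to -0.01) and Mrps18b on replicate 4 (-0.04, the others from -0.46 to -0.41). At 12 days, as knockout over wild type, they were Mrpl17 on replicate 5 (0.444, the others from -0.17 to 0) and Mrps23 on replicate 2 (-0.58, the others from -0.17 to -0.07).

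The knockout effect on Mrpl24 differed between 15 and 12 days by 0.9725 under the Cy5 over Cy3 reading (limma adjusted p = 0.043), and by -0.3625 with the 15-day sign turned (adjusted p = 0.807).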

How the results depend on the processing

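At 15 days the count of large-subunit genes called below 0 was 4. It was 8 with the local median of spots subtracted, 1 in a joint fit of 9 arrays without a dye term, and 0 at the stricter threshold (adjusted p under 0.01 and 1.5-fold) and in a joint fit that has a dye term and the 15-day sign turned. With 1 array left out it was 0 to 2. The small subunit had 1 gene called below 0 with the local median subtracted (Mrps11) and 1 in the joint fit without a dye term (Mrps18b), against 0 otherwise. Mrps25 was its 1 call above 0, which became 0 at the stricter threshold, in the joint fits without a dye term and with the sign turned, and with the shared Mrps25 and Nr2c2 probes averaged in, and was 0 to 1 with 1 array left out. The small-subunit median was -0.19 in a joint fit that has a dye term, and the large-subunit median -0.126 with the sign turned as well. The cause of these shifts was not tested. The age difference had 1 large-subunit call, 2 with scale normalization or the local median, 4 with quantile normalization (and 1 in the small subunit), 0 at the stricter threshold or with the 15-day sign turned, and 0 to 2 with 1 array left out. Its large-subunit median turned to -0.13, and Mrpl24 to -0.36, with the 15-day sign turned. At 12 days limma called 0 members under every alternative run, and the medians lay between -0.11 and -0.01 (large) and between -0.14 and 0.015 (small) with 1 array left out. Mrpl15 also missed the threshold at 15 days with scale (adjusted p = 0.051) or quantile normalization (0.052). Mrpl24 kept its call at 15 days under 13 of 16 alternatives, with estimates from -0.80 to -0.48. Mrpl51 and Mrpl3 kept theirs under 9, Mrpl15 under 6 and Mrps25 under 10 of 16, and none of these 5 genes changed its sign at 15 days. Each ratio already sets 1 knockout against 1 wild-type sample on its array, and the labels give no replicate numbers by which arrays could be paired across ages.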
